A study of Mus musculus with 3 samples.

Results

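RNA recovered with Mettl3 from the nuclei of CCE cells was compared with the nuclear input RNA. CCE is a line of mouse embryonic stem cells. The cells were grown without feeder cells, on gelatin with serum and leukemia inhibitory factor, and received no treatment. The Mettl3 immunoprecipitation (RIP) used a Bethyl antibody, protein G beads and Trizol extraction, and it was 1 library set against 1 input library. A Zfp217 RIP of the same line, with a Santa Cruz antibody, shared that input and brought the series to 3 libraries. All rows of the deposited Mettl3 table were taken, which gave 9501 transcripts of 6971 symbols, out of 13595 transcripts listed for either antibody and 8120 listed for Zfp217. Genotypes other than that of the line were not given in the labels. The RIP libraries differed from the input by the whole pull-down, antibody and beads included.

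Mettl3 is the catalytic subunit of the nuclear enzyme that writes N6-methyladenosine (m6A) into RNA. It works as a pair with Mettl14, and Wtap, Rbm15 and Cbll1 belong to the wider complex. The enzyme favours the letters GGAC followed by a pyrimidine or adenine, and m6A is known to lie mostly in long internal exons, near stop codons and in 3′ untranslated regions. In embryonic stem cells m6A is known for marking transcripts of pluripotency factors and for speeding their decay.

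Values were FPKM, fragment counts normalised to transcript length and library depth. The table was a selection by the authors: the lowest RIP value was 1.00006 FPKM, and where the input was above 0 the lowest RIP over input ratio was 1.50007. Transcripts below these limits were not analysed here, so the counts describe how far listed transcripts stood above the limit and not which RNAs were bound. Plxdc1 and Atp11a, at 1.00006 and 1.00013 FPKM in the RIP, lay nearest the first limit. The transcripts 5730590G19Rik (10.1 FPKM in the input, 15.2 in the RIP) and Klhl2 (2.57 and 3.86) lay nearest the second. With 1 library a side there was no replicate error and no test. The intervals below are exact 95% intervals that cover counting error only. They rest on depths read from the tables, about 10040000 fragments in the RIP and 6005000 in the input. RNA held by beads or by an unrelated antibody was not analysed here. Each library pooled many cells, so a transcript in more cells and more RNA per cell cannot be told apart.

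Markers could be read only as far as a selected table allows. Of 12 embryonic stem cell markers, 7 were listed in the Mettl3 table and 8 in either table. Of 33 mesoderm and endoderm markers 0 were in the Mettl3 table, against 2 of 21 neural and 3 of 16 fibroblast markers, of which Fn1 reached 14.9 FPKM in the RIP from 6.11 in the input. Being unlisted does not show that a marker was unexpressed.

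Stretches of RNA that hold the preferred letters of the enzyme are shown first, from Mettl3 itself and from 5 of the 20 transcripts with the highest ratios. Only GGACT was searched for, and not all of the 20 hold it: of the 16 found in M21, Nhp2l1, Bag1, Ncor1, Eef1a1 and Gm14399 had 0 matches. Whether these hold other forms of the preferred letters is not given here. Each stretch is 25 bases of GENCODE M21 on GRCm38, in the sense of the transcript, with GGACT in capitals. A match describes the letters only and was not tied to any read or methyl mark.
Tug1, noncoding, chr11:3642984-3643008, minus strand: atgccaaaagGGACTtccttaaagc
Tug1, noncoding, chr11:3642788-3642812, minus strand: catccaaggtGGACTtcctggagtt
Tug1, noncoding, chr11:3641134-3641158, minus strand: aataatgtctGGACTaaaccctatg
Psat1, retained intron transcript, chr19:15905735-15905759, minus strand: ttctctaggtGGACTgccttgggct
Ctdsp2, 3′ untranslated region, chr10:126997506-126997530, plus strand: cttgggagaaGGACTttccccggtt
Zmat3, 3′ untranslated region, chr3:32337788-32337812, minus strand: agaaattggtGGACTgtgtacccaa
Cbx5, 3′ untranslated region, chr15:103191821-103191845, minus strand: aattctctgtGGACTtttttggttt
Mettl3, coding, chr14:52296526-52296550, minus strand: accagggcctGGACTgcgatgtgat
Mettl3, 3′ untranslated region, chr14:52294908-52294932, minus strand: caccttaagaGGACTgtttacgcaa

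The transcript of Mettl3 itself stood at 3.31 FPKM in the input and 16.3 FPKM in the Mettl3 RIP. That was a 4.92-fold higher value (95% interval 3.50 to 7.11), for ENSMUST00000022767, the only Mettl3 transcript in the table out of 15 in M21. On GRCm38 it spans chr14:52294841-52305128 on the minus strand, with 11 exons over 2025 bases, and it holds 4 GGACT matches. It was not listed for Zfp217.

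Transcripts fell into 3 groups by their input, which hold different kinds of RNA. Input of at least 1 FPKM was found for 3725 transcripts, or 39.2% of the table, and these carry the ratios described here. Their RIP value had a median of 6.22 FPKM (quartiles 3.67 and 11.6) and their input a median of 2.69. The log2 ratio, log2((RIP + 1)/(input + 1)), had a median of 0.82 (quartiles 0.62 and 1.14), and the plain ratio a median of 2.07. On the log2(FPKM + 1) scale 1258 of the 3725, or 33.8%, were at least 2-fold higher in the RIP. This 33.8% is the background for the counts below. On the plain ratio 2024 were at least 2-fold higher, or 54.3%, since the added 1 FPKM lowers the ratio of weakly expressed transcripts. An interval could be computed for 3292 of these transcripts, and it lay wholly above 1 for 2905 (88.2%) and wholly above 2 for 755 (22.9%). As the table admits only ratios above 1.5, a high share above 1 was largely set by that limit. These intervals do not allow for the selection, and the shares are not read as enrichment. The median transcript rested on about 53.8 input and 206 RIP fragments, and 331 had under 10 input fragments.

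**Figure D1:**
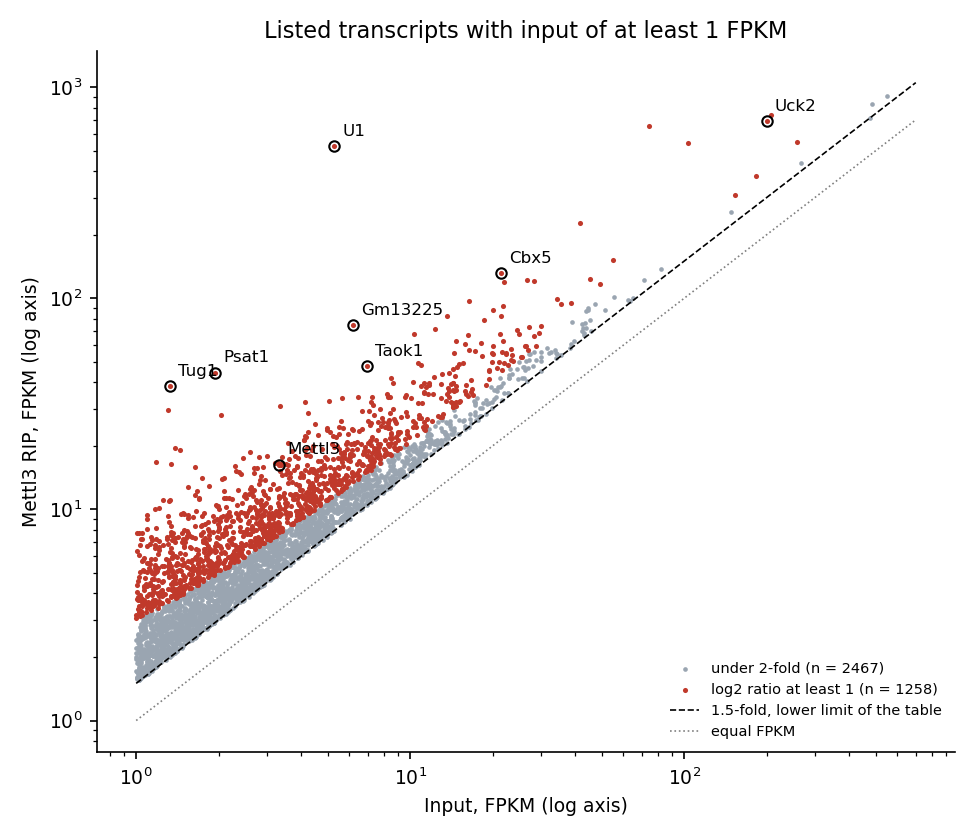
Each point is 1 listed transcript with an input of at least 1 FPKM, input FPKM on the x axis and Mettl3 RIP FPKM on the y axis, both log axes; the dashed line is the 1.5-fold limit of the table and red marks the 1258 transcripts at least 2-fold higher on the log2(FPKM + 1) scale. No point lies below the dashed line, and Tug1, Psat1 and a U1 RNA stand far above it.

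An input of 0.01 to 1 FPKM was found for 2378 transcripts (25.03%), of which 825 (34.7%) were at least 2-fold higher on the same scale. An input under 0.01 FPKM was found for 3398 transcripts (35.8%), 2983 of them listed at 0. Over all 9501 rows 5480 (57.7%) reached 2-fold, but with an input at 0 any RIP value the table admits does so, and nothing is read from that share. The 3 groups differed in make-up. Protein-coding transcripts made up 83.2% of the group with the highest input, 64.3% of the middle one and 52.2% of the lowest. Retained-intron transcripts made up 4.72%, 15.5% and 15.7%, and median lengths were 3384, 2450 and 892 bases.

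Tug1 led the listed transcripts with input of at least 1 FPKM, among those of at least 300 bases or, where the transcript was not in M21, with a gene span of at least 300 bases. Tug1 is a long noncoding RNA; transcript ENSMUST00000144852 went from 1.33 FPKM in the input to 38.4 in the RIP, 28.9-fold (20.9 to 41.3). It spans chr11:3639794-3648812 on GRCm38 and holds 7 GGACT matches in 4720 bases, 3 of which are printed above. Psat1 encodes the aminotransferase of serine synthesis, and its retained-intron transcript had 1.94 FPKM in the input and 44.4 in the RIP, 22.9-fold (14.1 to 39.7). Nhp2l1 encodes a protein that binds U4 and box C/D small RNAs, and a processed transcript of it had 1.30 and 29.6 FPKM, 22.7-fold (9.47 to 72.1). All 3 are noncoding transcripts in the authors' classes. Their intervals overlap, so their order is not resolved by the counts.

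Coding transcripts followed. Tab2, an adaptor of the kinase Tak1, had 2.04 FPKM in the input and 27.9 in the RIP, 13.7-fold (8.98 to 21.9). Fermt2, the integrin activator kindlin-2, had 1.38 and 19.6 FPKM, 14.2-fold (9.60 to 21.8). Bag1, a partner of Hsp70, had 1.18 and 16.7 FPKM, 14.1-fold (7.06 to 32.8). Ctdsp2, a phosphatase of the RNA polymerase II tail, had 1.44 and 19.02 FPKM, 13.2-fold (9.39 to 19.1). The zinc finger gene listed as Gm13225 and named Zfp990 in M21 had 6.18 and 74.6 FPKM, 12.1-fold (9.94 to 14.8). Mbtd1, which encodes a chromatin protein with MBT repeats, had 1.34 and 16.4 FPKM, 12.2-fold, with no length in M21 and so no interval. These 6 stood between 12.1-fold and 14.2-fold, and the intervals of the 5 that have one overlap.

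Several members with narrow intervals had long 3′ untranslated regions. At the same FPKM a longer transcript holds more fragments, which by itself narrows the interval. Zmat3, an RNA-binding zinc finger protein induced by p53, had 3.35 FPKM in the input and 31.0 in the RIP, 9.26-fold (7.85 to 11.0), with 6625 bases of 3′ untranslated region. Taok1, a protein kinase, had 6.94 and 47.7 FPKM, 6.87-fold (6.26 to 7.56), with 8705 bases. Cbx5, the heterochromatin protein HP1 alpha, had 21.5 and 131 FPKM, 6.10-fold (5.73 to 6.49), with 8097 bases. Cbx5 had the highest input of the 20 leading symbols, and its interval was the narrowest relative to its ratio among the 16 that have one. Cpne3, a calcium-binding copine, had 2.60 and 18.8 FPKM, 7.22-fold (5.79 to 9.10). Lypla1, a thioesterase that removes palmitate from proteins, had 13.6 and 82.1 FPKM, 6.05-fold (5.21 to 7.05). The remaining 6 of the 20 were Cd164 (7.79-fold), a retained-intron transcript of the corepressor Ncor1 (9.75-fold, 3.97 to 31.4), a 745-base transcript of the elongation factor Eef1a1 (5.94-fold), Fkbp1a (6.73-fold), Hmmr (6.42-fold) and Gm14399 (8.09-fold, 3.52 to 23.1).

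Some of these 20 leading transcripts were also listed for Zfp217, with the same input library. Zfp217 RIP values were 6.799 FPKM for Tug1, 7.17 for Psat1 and 3.24 for Ctdsp2, each under the Mettl3 RIP value. They were 20.98 for Bag1, above its 16.7 in the Mettl3 RIP, and 15.3 for Fermt2, under its 19.6. Because the 2 comparisons share their input, no overlap is given as a result. Of the 16 that matched M21, 0 came from a gene with 1 transcript.

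**Figure D2:**
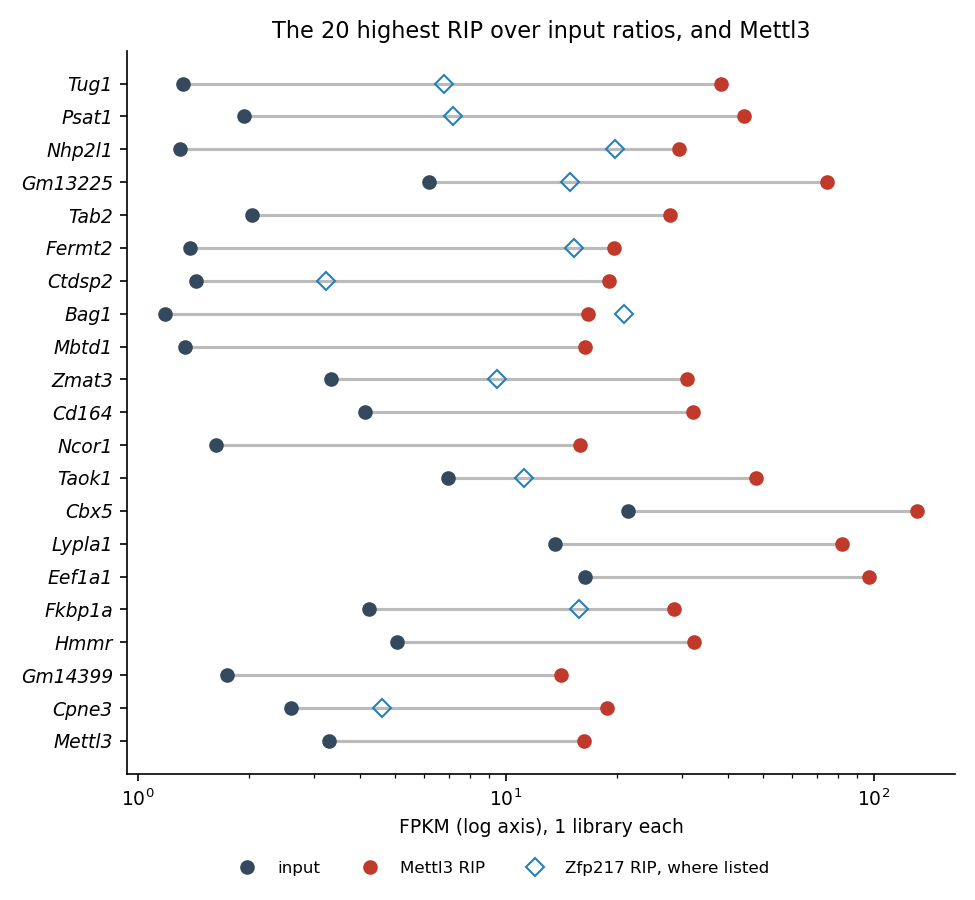
The 20 symbols with the highest log2 ratio, in descending order, and Mettl3 at the bottom; dark points are input FPKM, red points Mettl3 RIP FPKM and open diamonds Zfp217 RIP FPKM where listed, on a log axis with 1 library each. Tug1 runs from 1.33 to 38.4 FPKM, and Bag1 is the 1 row where the diamond lies to the right of the red point.

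Levels in the RIP were highest for very short RNAs, whose FPKM is not comparable with that of longer ones. Among transcripts with input of at least 1 FPKM the 5 highest RIP values were 908 FPKM for Gm11032 (102 bases), 830 for U5 RNA, 736 for Gm10139 (171 bases), 717 for Gm12238 and 690 for Uck2. Uck2, a uridine and cytidine kinase of 4731 bases, was the 1 long transcript among them. It had 199.8 FPKM in the input and was 3.45-fold higher in the RIP (3.36 to 3.55).

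A gene with 1 annotated transcript has less room for reads to be divided among isoforms, and 245 such protein-coding genes of at least 300 bases had an input of at least 1 FPKM. Of these 80 (32.7%) were at least 2-fold higher, close to the 33.8% over all, and their median log2 ratio was 0.83. The leading one was 1190002N15Rik, at 1.02 FPKM in the input and 7.76 in the RIP, 7.61-fold (4.99 to 12.1). Ammecr1 followed at 3.41 and 17.7 FPKM, 5.19-fold (4.25 to 6.39), with 4387 bases of 3′ untranslated region. Sfrp1, a secreted inhibitor of Wnt ligands, had 6.21 and 23.9 FPKM, 3.84-fold (3.25 to 4.58). Eif5a2, a translation factor, had 1.83 and 8.70 FPKM, 4.76-fold (3.58 to 6.45). The highest ratio of this set was 7.61, and the set is 8.77% of the 2795 coding transcripts of at least 300 bases matched to M21 with that input.

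Transcripts of 1 gene could differ widely. Tug1 had 3 with input of at least 1 FPKM, at 28.9-fold, 5.64-fold (1.35 and 7.59 FPKM) and 1.77-fold (8.02 and 14.2 FPKM, interval 1.52 to 2.06). The isoform with the most input was the one with the lowest ratio. Mga, a repressor that pairs with Max, had 5: a processed transcript went from 2.45 to 17.4 FPKM, 7.12-fold (4.30 to 12.6), and the coding transcript of 11982 bases from 8.54 to 18.2 FPKM, 2.13-fold (1.94 to 2.33). The other 3 stood at 1.76, 1.54 and 1.52-fold. Ncor1 had retained-intron transcripts at 9.75-fold and 8.30-fold and another 3 transcripts between 1.91-fold and 2.04-fold. Rmnd5a, a subunit of an E3 ubiquitin ligase, had transcripts at 7.35-fold (5.24 to 10.6) and 1.52-fold (1.29 to 1.80). Eef1a1 had a coding transcript at 5.94-fold and retained-intron ones at 2.06 and 1.51-fold. The part that the dividing of reads among isoforms had in these values was not tested.

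**Figure D3:**
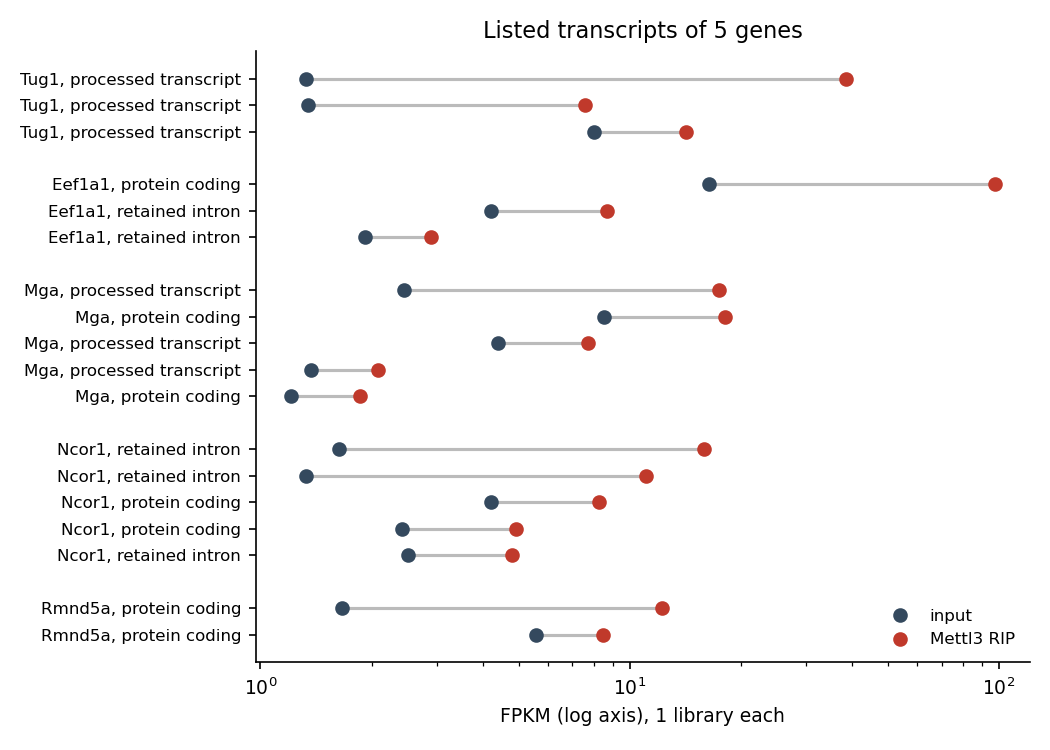
Input (dark) and Mettl3 RIP (red) FPKM on a log axis for every listed transcript with input of at least 1 FPKM and at least 300 bases of the 5 genes with the widest range of ratios, 1 row per transcript. In Tug1 the 28.9-fold transcript has the lowest input and the highest RIP value of the 3.

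Sequence features varied with the ratio among protein-coding transcripts that had a coding sequence in M21 and input of at least 1 FPKM (n = 2769). These transcripts share 2 libraries and are not replicates, so the rank correlations (Spearman's rho) are descriptions. Transcripts were cut into 4 equal bins by log2 ratio. From the lowest to the highest bin, median GC content went 48.95, 48.17, 46.80 and 44.46% (rho −0.26). The median 3′ untranslated region went 1356, 1598.5, 1883.5 and 2357 bases (rho 0.21), and the median longest exon 1799, 2090, 2463.5 and 2741 bases (rho 0.21). For coding length and exon number the rho was −0.06 each, and −0.14 each with an input of at least 5 FPKM. Median exon number went from 9 in the lowest bin to 7 in the highest. For comparison, the 58797 annotated protein-coding transcripts had medians of 50.4% GC, 335 bases of 3′ untranslated region and 728 bases for the longest exon. That set has no limit on input or listing. The lowest bin already stood at 1356 and 1799 bases for these 2 lengths, so the gap is not read as a result about the ratio.

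Low GC and a long 3′ untranslated region went together (rho −0.31), so each was also read within 4 equal bins of the other. Within bins of GC from lowest to highest, 50.1, 37.7, 28.9 and 20.8% of transcripts were at least 2-fold higher, beside 34.5% of all 3100 protein-coding transcripts. The rho with 3′ untranslated length within those bins was 0.23, 0.22, 0.07 and 0.06. Within bins of 3′ untranslated length from shortest to longest, 26.8, 27.5, 35.3 and 48.0% were at least 2-fold higher, and the rho with GC was −0.10, −0.21, −0.24 and −0.34. The relation with 3′ untranslated length was thus weakest in GC-rich transcripts, and that with GC weakest where the 3′ untranslated region was short. In the 242 of them from genes with 1 transcript the values were −0.36 for GC, 0.35 for 3′ untranslated length and 0.37 for the longest exon. In the Zfp217 table, which shares the input, the values for 1762 transcripts were 0.03, −0.15 and −0.17. The difference between the tables was not tested. Whether GC content acts on the measurement itself was not tested.

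**Figure D4:**
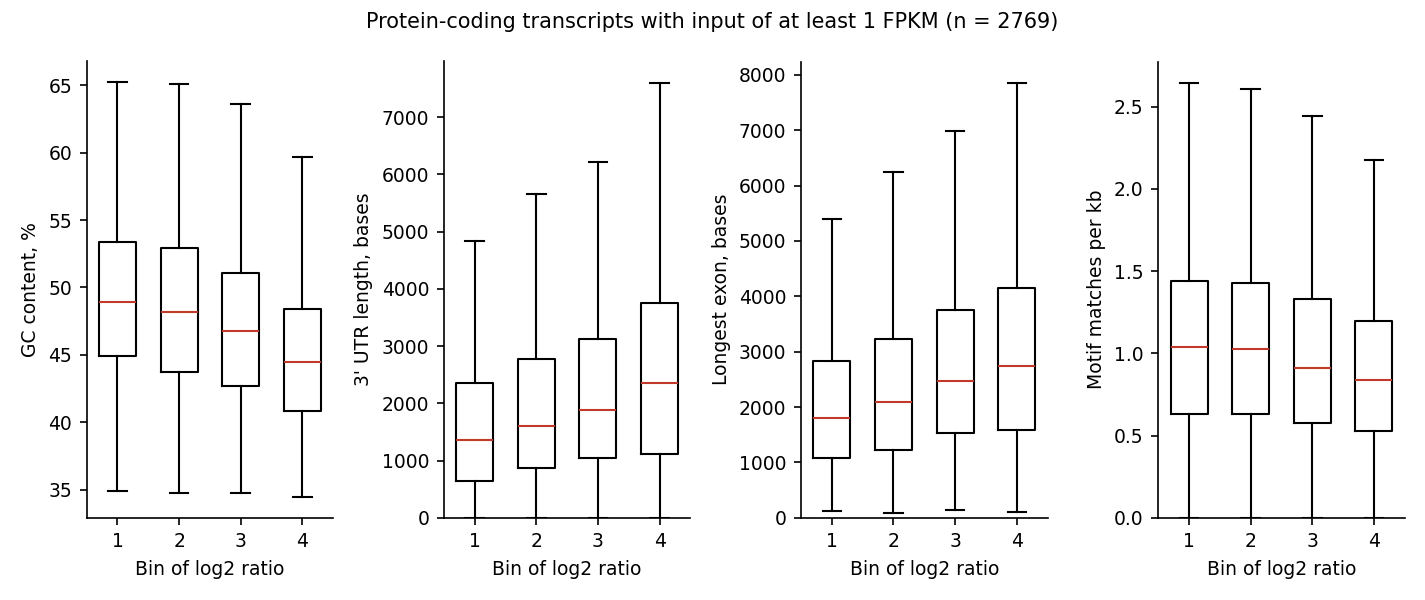
GC content, 3′ untranslated length, longest exon and GGACT matches per kilobase for 2769 protein-coding transcripts by bin of the log2 ratio (1 lowest, 4 highest); the red line is the median, the box spans the quartiles and the whiskers reach the furthest value within 1.5 box lengths. Median GC falls from 48.95 to 44.46%, while the median 3′ untranslated region goes from 1356 to 2357 bases.

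Over the 2769 transcripts the letters GGACT did not go up with the ratio. At least 1 match in the transcript, on the sense strand, was held by 92.7% of the 2769 listed transcripts and by 78.7% of the annotated ones, which are shorter. Pooled over their length, matches stood at 0.987 per kilobase in the listed transcripts and 1.10 in the annotated ones. Median matches per kilobase over the 4 bins of the ratio were 1.04, 1.02, 0.91 and 0.83 (rho −0.12). Within 3′ untranslated regions the rho was −0.03, and for the count of matches per transcript it was −0.00. In the 242 from genes with 1 transcript the rho was −0.14 per kilobase, 0.04 within 3′ untranslated regions and 0.11 for the count. The density falls beside GC content, and the part of GC in it was not tested. The Mettl3 transcript itself had 1.98 matches per kilobase and the leading Tug1 transcript 1.48.

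Among gene groups, the m6A machinery comes first. Of 7 transcripts of the writer complex with input of at least 1 FPKM, 3 were at least 2-fold higher (42.9%, beside 33.8% of all). They were Mettl3, Cbll1 and Rbm15. Cbll1, the ubiquitin ligase of the complex, had 2.67 FPKM in the input and 11.6 in the RIP, 4.35-fold (3.32 to 5.80). Rbm15, which recruits the complex to RNA, had 8.68 and 30.0 FPKM, 3.46-fold (2.99 to 4.01). The lowest of the 7, a Wtap transcript, had 4.15 and 6.97 FPKM, 1.68-fold (1.20 to 2.39). Of 19 transcripts of m6A readers and erasers 4 passed (21.1%), but their median log2 ratio was 0.87 beside 0.82 over all. On the plain ratio 47.4% of these 19 passed, beside 54.3% over all. A transcript of Ythdf2, a reader that promotes decay, had 2.00 and 8.29 FPKM, 4.14-fold (3.05 to 5.73). Ythdc2, a reader with a helicase domain, had 1.18 and 1.92 FPKM, 1.63-fold (1.17 to 2.31).

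In the FGF and ERK pathway with its immediate early genes 9 of 14 transcripts passed (64.3%), and the median log2 ratio was 1.22 beside 0.82 over all. These are the signals that push stem cells toward differentiation. Braf, a kinase upstream of ERK, had 2.96 FPKM in the input and 13.8 in the RIP, 4.66-fold (3.97 to 5.50). Etv5, a transcription factor that ERK induces, had 14.6 and 63.0 FPKM, 4.30-fold (3.82 to 4.85). The inhibitors Spred2 and Spred1 stood at 3.63-fold (3.09 to 4.29) and 3.10-fold (2.68 to 3.60). Jund, a member of the AP-1 family, was lowest at 3.51 and 5.63 FPKM, 1.60-fold.

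Receptors and effectors of other pathways were also among the listed RNAs. In the TGF-beta and BMP pathway 10 of 21 transcripts passed (47.6%), among them the receptor Bmpr1a at 4.95 and 24.2 FPKM, 4.88-fold (4.17 to 5.75), and its effector Smad5 at 2.13 and 8.94 FPKM, 4.19-fold (3.32 to 5.34). The inhibitor Smad7 was lowest at 1.52-fold, with an interval from 0.85 to 2.84. In the Hippo pathway 6 of 11 passed, with the transcription factor Tead1 at 8.68 and 39.7 FPKM, 4.58-fold (4.16 to 5.04), and the upstream kinase Stk4 at 4.51-fold (3.40 to 6.08). Another Tead1 transcript was the lowest of that list, at 1.502-fold (0.47 to 5.89). In the Wnt pathway 6 of 22 passed (27.3%), but on the plain ratio 63.6% did, which turns it from below to above the background. It was led by the receptor Fzd5 at 4.18 and 22.0 FPKM, 5.27-fold (4.50 to 6.22). Of 65 kinase transcripts 28 passed (43.1%), and on the plain ratio 73.8% beside 54.3% over all.

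Pluripotency factors had 10 of 23 transcripts at least 2-fold higher (43.5%), but on the plain ratio 56.5% were, near the 54.3% over all. Their highest log2 ratios were those of short transcripts with few reads: Sall4 of 773 bases at 1.70 and 11.3 FPKM, 6.64-fold (2.97 to 17.98), and Tet1 of 581 bases at 1.06 and 5.75 FPKM, 5.42-fold (1.60 to 30.5). The 14369-base transcript of Tet1, an enzyme that oxidises methylcytosine, had 30.0 and 73.8 FPKM, 2.46-fold (2.36 to 2.57). Tcl1, a coactivator of Akt, had 1.75 and 7.78 FPKM, 4.43-fold (2.49 to 8.58). A Dnmt3a transcript had the lowest log2 ratio of the list, with a plain ratio of 1.54 (0.48 to 6.07).

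Groups for handling RNA and chromatin lay on both sides of the background. Nuclear pore, import and export genes had 15 of 32 transcripts at least 2-fold higher (46.9%), led by the import receptor Tnpo1 at 13.1 and 43.8 FPKM, 3.35-fold (3.08 to 3.64). On the plain ratio 59.4% of these 32 passed, beside 54.3% over all. Cytosolic ribosomal proteins had 10 of 18 (55.6%), but most of their listed transcripts, 29 of 54, had an input under 0.01 FPKM. Splicing factors had 28 of 77 (36.4%) and Polycomb and Trithorax genes 10 of 27 (37.0%), among them Rybp, a Polycomb partner, at 15.6 and 49.6 FPKM, 3.18-fold (2.86 to 3.54). Zinc finger genes named Zfp, the largest list, had 52 of 157 (33.1%), with Zfp652 at 4.50 and 25.5 FPKM, 5.67-fold (5.01 to 6.44). Ubiquitin ligases and deubiquitinases had 32 of 108 (29.6%) and vesicle transport genes 28 of 81 (34.6%). These larger lists were near the background on this scale. On the plain ratio Zfp genes stood at 57.3%, ubiquitin ligases and deubiquitinases at 58.3% and vesicle transport genes at 44.4%.

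Among lists below the background, DNA repair had 2 of 23 transcripts past 2-fold (8.70%). They were Rad23b, a damage sensor, at 7.95 and 25.9 FPKM, 3.26-fold (2.77 to 3.86), and Rad18, a ubiquitin ligase of damage tolerance, at 2.68-fold (1.85 to 3.97). Glycolysis and serine synthesis had 1 of 10, the Psat1 transcript described above, and the glucose transporter Slc2a3 stood at 47.1 and 93.9 FPKM, 1.99-fold (1.86 to 2.14). Histone methylation and demethylation had 2 of 16, DEAD and DEAH box helicases 2 of 15, and nucleolar and ribosome biogenesis genes 3 of 20. The order of lists depends on the scale. On the plain ratio 30.4% of DNA repair transcripts reached 2-fold beside 54.3% over all. Glycolysis (10%) and histone methylation (25%) were lower, and so were nucleolar genes and nonsense-mediated decay genes (30% each). FGF and ERK transcripts then stood at 71.4%, under cytosolic ribosomal proteins (77.8%), kinases (73.8%) and the Hippo pathway (72.7%). With an input minimum of 0.01 FPKM, DNA repair stood at 22.7% and FGF and ERK genes at 50%, under mitochondrial ribosomal proteins at 61.1%. Oxidative phosphorylation had 0 of 4. Only 1 replication-dependent histone transcript was listed, with an input under 1 FPKM.

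**Figure D5:**
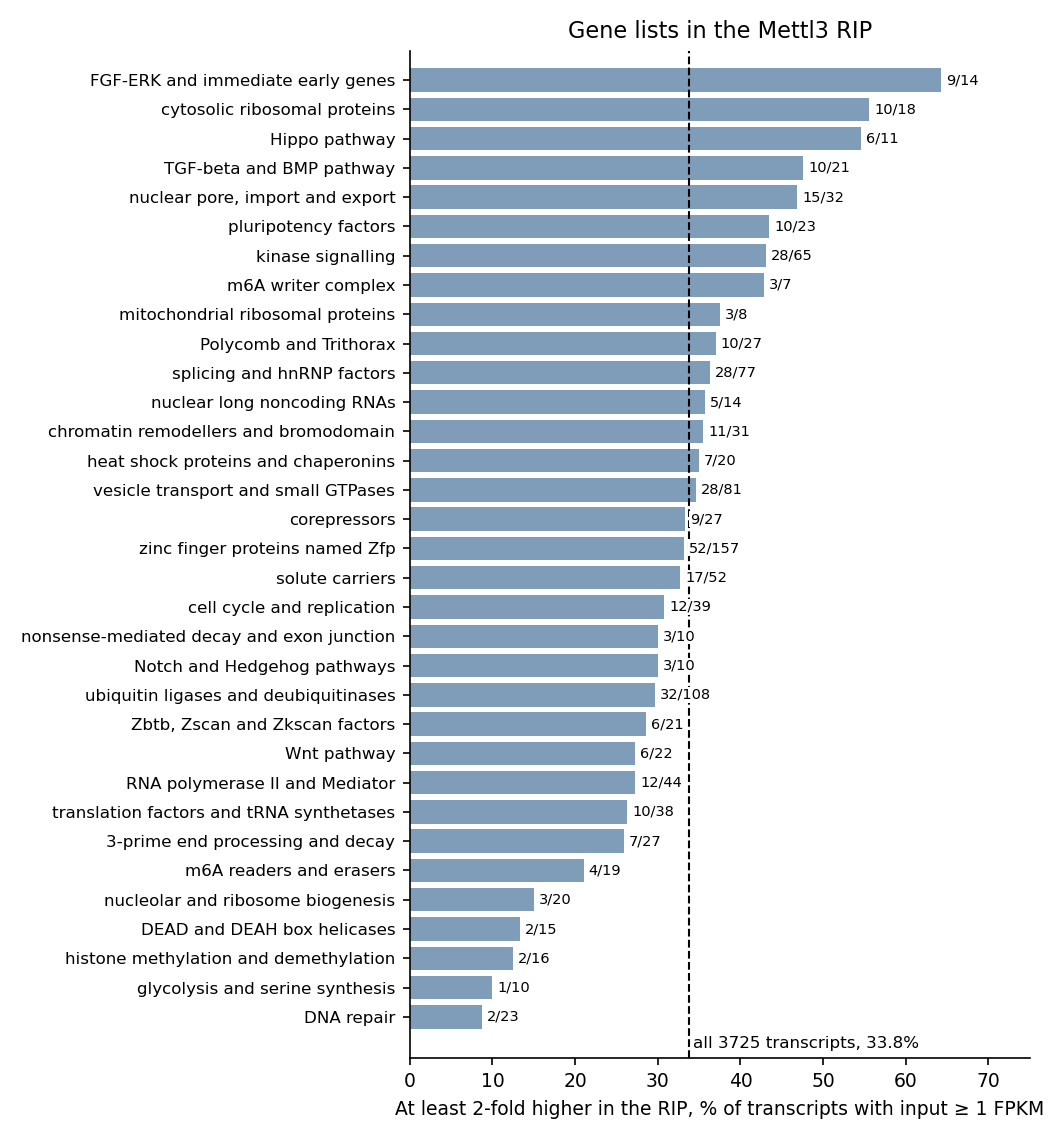
For lists with at least 5 transcripts, the share of those with input of at least 1 FPKM that passed 2-fold, in percent, with the count beside each bar; the dashed line is the 33.8% over all 3725 transcripts. On this scale and input minimum FGF and ERK genes are at the top with 9 of 14 and DNA repair at the bottom with 2 of 23, an order that changes with either choice, and the long Zfp list, with 52 of 157, lies near the line.

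By transcript class, 1070 of 3100 protein-coding transcripts with input of at least 1 FPKM were at least 2-fold higher (34.5%). Retained-intron transcripts were under that, at 38 of 176 (21.6%), but on the plain ratio they stood at 49.4% beside 54.6% of protein-coding ones. Transcripts of Psat1 and Ncor1 in this class were among the leading 20. Long intergenic noncoding RNAs had 23 of 57 (40.4%), with Gm17477 at 1.32 and 8.75 FPKM, 6.62-fold (4.15 to 11.2). The median log2 ratio of this class was 0.82, beside 0.84 for protein-coding transcripts. On the plain ratio the class stood at 57.9%, beside the same 54.6%. With an input minimum of 0.01 FPKM it stood at 33.1%, beside 35.4% of protein-coding transcripts. Small nucleolar RNAs had 7 of 11, led by SNORD46 at 74.3 and 657 FPKM, 8.84-fold. A transcript of U1, the spliceosomal RNA that pairs with 5′ splice sites, had the highest ratio of the table with input of at least 1 FPKM, at 5.28 FPKM in the input and 523 in the RIP. Another U1 transcript had 15.8 and 60.6 FPKM, 3.83-fold. U1 and other small RNAs have near-identical copies among which reads could be divided, so these values are uncertain.

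Among chromosomes the share at least 2-fold higher went from 22.97% of 209 transcripts matched to M21 on chromosome 7 to 49.1% of 112 on chromosome 16, with 40.7% of 135 on X. Median GC content was 50.4% on chromosome 7, 46.6% on chromosome 16 and 42.4% on X. Chromosome 13, at 44.9% GC, had a share of 32.5%. The part of GC in these shares was not tested.

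Transcripts with an input under 0.01 FPKM are described apart, with no fold. Their RIP value had a median of 1.77 FPKM (quartiles 1.29 and 2.88), so most stood just above the limit of the table. For 1279 of the 3398 (37.6%) another transcript of the same symbol was listed with an input of at least 0.01 FPKM. Genes with 1 annotated transcript made up 19 of 1471 protein-coding transcripts in this group (1.29%), against 245 of 2795 (8.77%) with input of at least 1 FPKM and 9.45% of 1302 between. Nearly all coding transcripts of this group therefore came from genes with several transcripts. The part of isoform assignment in an input of 0 was not tested.

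Single transcripts of this group reached high RIP values. A Sumo2 transcript, for a small ubiquitin-like modifier, was listed at 0 in the input and 145.8 FPKM in the RIP, while another Sumo2 transcript had 21.9 and 119 FPKM, 5.43-fold (4.42 to 6.74). A Tet1 transcript of 13986 bases was listed at 0 and 101.7 FPKM, beside the one of 14369 bases at 30.0 FPKM in the input. Klf4 and Esrrb, transcription factors of the pluripotent state, were listed at 0.00253 and 0.00921 FPKM in the input and at 53.6 and 46.3 in the RIP. In the Zfp217 RIP the same transcripts had 51.8 FPKM for Klf4 and 5.13 for Esrrb. Another Esrrb transcript had 0.50 and 1.53 FPKM. Transcripts of Eif4g2 (65.1 FPKM in the RIP), Gnb2l1 (30.4), Arpc5 (26.7) and Gm13242 (25.9) were listed at 0 in the input, and Gm13051 at 0.00986 with 29.9 in the RIP. AC134576.1, a microRNA-class entry whose transcript was not in M21, was listed at 0 and 1205 FPKM, the same RIP value as the 67-base mt-Th.

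Short RNAs made up part of this group. There were 51 small nucleolar, 47 microRNA-class and 30 small nuclear entries with an input under 0.01 FPKM, with median RIP values of 25.5, 55.7 and 24.7 FPKM. Of the 2986 with a length in M21, 230 were under 300 bases. The highest RIP value of the table, 6757 FPKM, was such an entry, mmu-mir-2134-4, of 57 bases. At such lengths 1 fragment gives a large FPKM, so the value does not compare with that of an mRNA.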

How the data were processed

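RNA of CCE nuclei was sequenced as 1 input, 1 Mettl3 RIP and 1 Zfp217 RIP library. FPKM values per Ensembl transcript were deposited by the authors, with a log2 fold change of RIP over input, which a recomputed ratio matched within 0.00389. Build mm9 and the tools TopHat2 2.0.8, Bowtie2, Cuffdiff, Cufflinks and CASAVA 1.4 are named in the submitters' processing notes. What each tool did is not given in the sources used here.

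Log2 ratios used a pseudocount of 1 FPKM, so the change of weakly expressed transcripts comes out too small. Named transcripts also carry the plain ratio. A log2 ratio of at least 1 was the rule of size, and with 1 library a group nothing was tested. GENCODE M21 on GRCm38, matched by transcript identifier for 8389 transcripts (88.3%), gave lengths, exons, coordinates and sequences. No coordinate came from the authors' build. A wrong or missing isoform in either annotation would move the FPKM and the features.

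Depth was estimated from short noncoding RNAs of 235 to 400 bases, whose FPKM times effective length (fragment length 145 bases) times depth came out whole within 0.05 for 19 of 22 in the RIP and 4 of 4 in the input. Intervals are exact conditional binomial (Clopper-Pearson) intervals at those depths. Without molecular identifiers they cover counting error only. The fragment length and depths are fitted values, chosen to make the shares of whole values as large as possible. Those shares are therefore no check on the depths, and the input depth rests on 4 RNAs. The interval code was tested on simulated data at known depths.

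The transcripts, 39 gene lists and rules were chosen with earlier results of these data known. The text names Mettl3, the 20 symbols with the highest log2 ratio (input of at least 1 FPKM, at least 300 bases in length, or in gene span where no length matched), the 5 highest RIP values, the 10 highest RIP values with input under 0.01 FPKM and the length limit of the 20 symbols, up to 3 highest and 1 lowest member of a list or class, the 5 genes with the widest range among transcripts and the 2 transcripts nearest each limit of the table. The leading single-transcript genes, Braf, Spred1, Spred2, the 14369-base Tet1, the second Sumo2 and Esrrb transcripts, mt-Th and mmu-mir-2134-4 were named after their values were seen. In 21 transcripts the symbol had become a date, and these matched no list. Some transcripts that the rule takes are left out of the text. Python 3.11.15, pandas 2.3.3, NumPy 2.4.6 and SciPy 1.17.1 were used.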

Additional observations from a re-analysis of the deposited data

How the results depend on the processing

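The 1258 transcripts at least 2-fold higher became 1925 with a pseudocount of 0.1 FPKM, 2024 with none, 372 with an input minimum of 5 FPKM, 2083 with a minimum of 0.01 and 5480 with no minimum, where more or fewer transcripts are counted. The median log2 ratio of 0.82 became 1.02 with a pseudocount of 0.1 FPKM, 1.05 with none and 0.89 with an input minimum of 5 FPKM. Taking 1 transcript per symbol gave 1109 transcripts and taking those with a length in M21 of at least 300 bases, which also drops unmatched transcripts, gave 1098 of 3292. Among genes with 1 transcript in M21, an alternative added after the data were seen, the rho with coding length turned from −0.06 to 0.0424 and that with exon number from −0.06 to 0.00782; the cause was not tested. Of 88 alternative values for lists and classes 71 stayed within their counting interval, and the other 17 all came from dropping the pseudocount. That interval counts transcripts, which are not replicates, and is wide for short lists. The writer complex, with 7 transcripts, went from 42.9 to 71.4% without the pseudocount and stayed within it. The share over all went from 33.8 to 54.3% on that step, so staying within does not show that a list kept its place. No paired analysis was possible because each group had 1 library, and no library could be left out for the same reason. Depth limits short or weakly expressed transcripts most: 331 of 3292 rested on under 10 input fragments.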
